A study of Homo sapiens with 36 samples.

Results

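The 12 RNA-seq libraries of human neural stem cells (hNSC) in which either MEIS1 or MEIS2 was activated were compared, as 1 set, with the 6 libraries of their control, to find genes that moved the same way with either paralog. These 18 libraries, out of 36 in the series, were chosen by their labels: 6 of MEIS1-OE, 6 of MEIS2-OE and 6 of ctrl-OE, where OE stands for overexpression by CRISPR-activation (CRISPRa). The hNSC are a commercial line. All 3 groups received lentiviruses for a guide RNA with MS2 loops, for a dead Cas9 fused to VP64 and for the MS2-bound activator complex, and were harvested 48 h after infection. MEIS1-OE and MEIS2-OE each carried 1 activating guide against the respective promoter, and ctrl-OE carried a non-targeting guide. A targeting guide was therefore always compared with a non-targeting one, and its effect cannot be told apart from that of the MEIS protein. The other 18 libraries came from MEIS1-KO, MEIS2-KO and ctrl-KO, 6 per group, made with a cutting Cas9 and, for each MEIS gene, a mixture of guides. They did not enter the calls on the activations and served as a separate readout.

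MEIS1 and MEIS2 are paralogous transcription factors of the TALE homeodomain class. They bind DNA at sites around TGACAG, often together with PBX proteins and HOX proteins, and take part in the development of limbs, eyes, blood and the nervous system. Neural stem cells are dividing progenitors of neurons and glia that express SOX1, SOX2, PAX6, nestin (NES) and vimentin (VIM).

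Levels are given in CPM, which are counts scaled to library sizes normalized by TMM. They compare samples for 1 gene and not genes with each other. Fold changes are log2 differences from ctrl-OE with a standard error (SE), tested by edgeR's quasi-likelihood test and adjusted over all 18915 genes with at least 10 counts summed over the 18 libraries, and n = 6 per group throughout. The counted reads of a library numbered from 17872897 to 22940493. In ctrl-OE the median level was 115 CPM for SOX2, 36.3 CPM for SOX1 and 21.2 CPM for PAX6, so that the defining markers of the labelled cell type were present. Every library lay nearest to the mean of its own group, and MEIS1-OE replicate 3 stood furthest from its own, at a root mean square log2 distance of 0.441. Nothing states that the replicates are separate cultures, so that P-values measure the spread between these libraries. In bulk RNA, fewer cells of a type and less RNA per cell cannot be told apart.

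Each guide raised its own target. MEIS1 was at 16.6, 18.9 and 19.4 CPM (lowest, median and highest library) in ctrl-OE, at 303, 329.6 and 336 CPM in MEIS1-OE and at 16.4, 17.4 and 20.1 CPM in MEIS2-OE. MEIS2 was at 21.7, 23.7 and 25.1 CPM in ctrl-OE, at 839, 869 and 883 CPM in MEIS2-OE and at 21.9, 22.5 and 27.4 CPM in MEIS1-OE. The activated groups lay far above the controls, while the level of the other paralog overlapped with the controls in both cases. The pooled comparison therefore averages libraries in which different MEIS genes were raised, and both targets count among its raised genes although each was raised in only 6 of the 12 libraries.

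Pooling called more genes than both activations shared. The mean of MEIS1-OE and MEIS2-OE was higher than ctrl-OE for 152 genes (0.804% of the tested genes) and lower for 34 (0.18%) at an edgeR adjusted P below 0.05 and an absolute log2 fold change above 0.58. Of these 186 genes, 132 also differed between MEIS1-OE and MEIS2-OE at an edgeR adjusted P below 0.05, against a background of 1366 genes (7.22%) with such a difference, or 2494 without MEIS1-OE replicate 3. Among the genes with that difference and no call in the activation of the other paralog, 89 of the 107 raised genes were called in MEIS1-OE and 18 in MEIS2-OE, and all 14 lowered genes were called in MEIS1-OE. With the 12 libraries treated as 1 homogeneous group, the pooled counts fell to 39 raised and 10 lowered genes. The genes described below as shared were instead called in each activation by itself, at an edgeR adjusted P below 0.05 and with the same sign.

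Of the 18915 genes, 69 (0.365%) rose with either paralog and 13 (0.0687%) fell with either. The number lowered was the less stable, with 31 genes without MEIS1-OE replicate 3, 31 with DESeq2 and 33 with all 36 libraries in 1 fit. It was higher still with the replicate number as a block in the fit, as given in the last paragraph. Alone, MEIS1-OE raised 959 genes (5.07%) and lowered 563 (2.98%), and MEIS2-OE raised 174 (0.92%) and lowered 25 (0.132%). The shared raised genes thus made up 69 of 174 raised genes of MEIS2-OE and 69 of 959 of MEIS1-OE, but both contrasts rest on the same 6 controls, so that no test was made of this overlap. The median log2 fold change of the 69 raised genes was 0.49 in MEIS1-OE and 0.42 in MEIS2-OE, and that of the 13 lowered genes was -0.62 and -0.49, where the median over all tested genes was -0.0072 in the pooled comparison. The genes were selected by these same tests, and these sizes are a description. With a log2 fold change beyond 0.58 required in each activation, 19 genes were raised (0.1%) and 4 were lowered (0.0211%). All 12 activation libraries lay above all 6 controls for 45 of the 69 raised genes and below them for 10 of the 13 lowered ones, and over all tested genes 52 (0.275%) and 17 (0.0899%) were separated in these ways. These separations use the same libraries as the calls and are likewise a description.

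**Figure D1:**
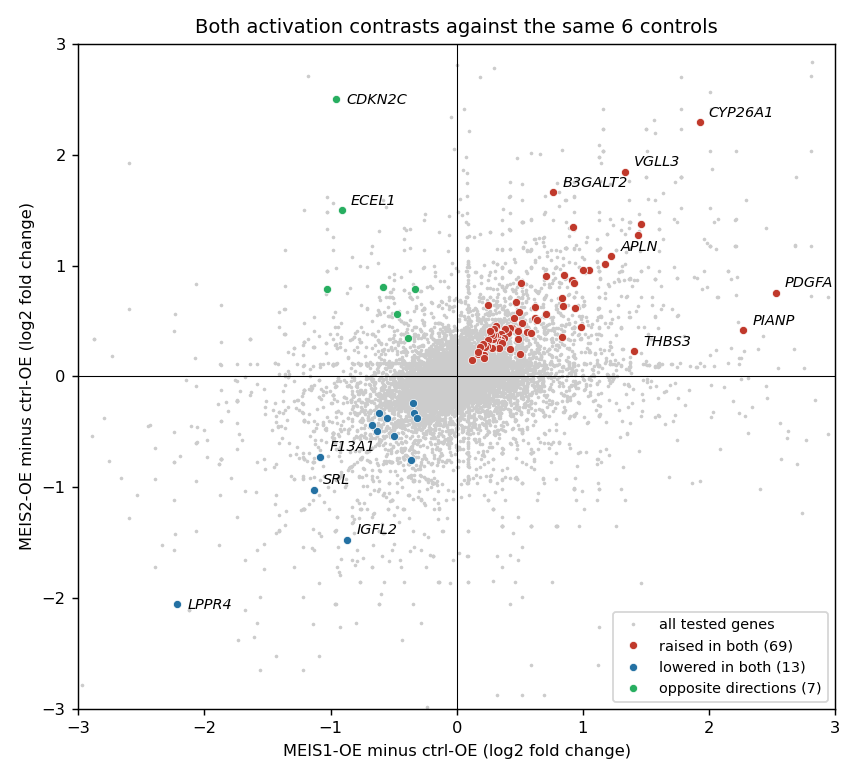
Log2 fold change of each tested gene in MEIS2-OE (vertical axis) against MEIS1-OE (horizontal axis), both relative to the same 6 ctrl-OE libraries. Grey points are all tested genes, red points the 69 genes raised in both, blue points the 13 lowered in both and green points the 7 called in opposite directions. The axes end at 3 log2 units, 72 genes lie outside, and the shared controls by themselves place points along the rising diagonal. PDGFA, PIANP and THBS3 lie toward the MEIS1 side and B3GALT2 toward the MEIS2 side.

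The calls were also made with 3 control libraries for each activation and none in common, which both separates the controls and leaves fewer of them per test. With MEIS1-OE set against ctrl-OE replicates 1 to 3 and MEIS2-OE against replicates 4 to 6, 30 genes were raised with both and 6 were lowered, and with the control libraries exchanged 30 and 5. In both assignments 25 of the 69 raised and 5 of the 13 lowered genes were called. Among them were CYP26A1, VGLL3, APLN, BAALC, MCHR1, TLR4, EPHA4 and TNFAIP3 of the raised genes and LPPR4, IGFL2, F13A1, SPN and LOC100506421 of the lowered genes described below. ITGA11, GREM1, PDGFA, SRL, EPHA7, CDC25C, PKNOX2 and THBS3 kept their direction but were called in neither assignment, and ANKRD1, B3GALT2, LGI1 and FRMD8 were called in 1 of them. What the separation and the smaller number each contribute was not tested.

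The 14 raised genes named by the size of their smaller fold change are given by role, starting with secreted proteins. APLN, which encodes the secreted peptide apelin, the ligand of the apelin receptor, was at 85.3, 97.9 and 115 CPM in ctrl-OE, at 144, 231 and 319.6 CPM in MEIS1-OE and at 165, 206 and 258 CPM in MEIS2-OE. All activation libraries were above all controls, and the pooled log2 fold change was 1.15 ± 0.13 (SE, edgeR adjusted P = 2.0e-06). GREM1, a secreted BMP antagonist, was at 11.1, 23.1 and 26.4 CPM in ctrl-OE, at 30.8, 38.4 and 67.5 CPM in MEIS1-OE and at 26.4, 42.0 and 54.4 CPM in MEIS2-OE. The groups met at 26.4 CPM without overlapping, and the log2 fold change was 1.05 ± 0.22 with MEIS1 and 0.96 ± 0.22 with MEIS2 (SE, edgeR adjusted P = 0.0025 and 0.025). PDGFA, a ligand of the PDGF receptors, was at 0.848, 0.905 and 1.11 CPM in ctrl-OE, at 4.5, 5.54 and 6.35 CPM in MEIS1-OE and at 1.11, 1.52 and 2.46 CPM in MEIS2-OE. It was high in all MEIS1-OE libraries and just above the controls in MEIS2-OE, where 1 library lay at the level of the highest control.

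PDGFA rose by a log2 fold change of 2.53 ± 0.15 (SE, edgeR adjusted P = 3.6e-11) with MEIS1 and of 0.75 ± 0.18 (SE, edgeR adjusted P = 0.038) with MEIS2. The difference of 1.78 was called (95% interval 1.48 to 2.07, edgeR adjusted P = 4.5e-09). The MEIS2 call for PDGFA rests on few counts and was kept in 8 of the 18 fits that left out 1 library. It was lost without MEIS2-OE replicate 1, 3, 5 or 6, MEIS1-OE replicate 4, or ctrl-OE replicate 1, 2, 3, 4 or 6. The lowest log2 fold change was 0.59, without MEIS2-OE replicate 6. The MEIS2 call for GREM1 was kept in 12 of 18 and was lost without ctrl-OE replicate 1 or 2 or MEIS2-OE replicate 3, 4, 5 or 6, with 0.83 as its lowest value, without ctrl-OE replicate 2. LGI1, which encodes a secreted synaptic protein, was at 0.896, 1.20 and 1.72 CPM in ctrl-OE, at 1.89, 2.42 and 2.59 CPM in MEIS1-OE and at 1.76, 2.17 and 2.37 CPM in MEIS2-OE. The highest LGI1 control lay just below the lowest activation library, the pooled log2 fold change was 0.77 ± 0.13 (SE, edgeR adjusted P = 7.9e-04), and the MEIS2 call was lost without ctrl-OE replicate 2 (log2 fold change 0.66).

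Receptors were raised as well. TLR4, the Toll-like receptor for lipopolysaccharide, was at 42.9, 46.8 and 55.3 CPM in ctrl-OE, at 84.0, 88.6 and 100.1 CPM in MEIS1-OE and at 80.2, 82.0 and 97.8 CPM in MEIS2-OE. All activation libraries lay well above a narrow control range, with a log2 fold change of 0.93 ± 0.06 (SE, edgeR adjusted P = 4.6e-10) in MEIS1-OE and 0.84 ± 0.06 (SE, edgeR adjusted P = 9.0e-09) in MEIS2-OE. EPHA4, an ephrin receptor that guides axons and borders between cells, was at 8.14, 9.80 and 11.7 CPM in ctrl-OE, at 13.1, 15.3 and 21.9 CPM in MEIS1-OE and at 16.7, 18.2 and 20.2 CPM in MEIS2-OE. Its activation libraries did not overlap with the controls, and its pooled log2 fold change was 0.81 ± 0.10 (SE, edgeR adjusted P = 2.3e-05). MCHR1, a receptor of melanin-concentrating hormone, was at 1.62, 2.12 and 3.14 CPM in ctrl-OE, at 3.05, 4.20 and 4.63 CPM in MEIS1-OE and at 3.78, 4.31 and 4.59 CPM in MEIS2-OE. The highest control overlapped only with the lowest MEIS1-OE library, and the pooled log2 fold change was 0.88 ± 0.12 (SE, edgeR adjusted P = 3.2e-05). ITGA11, the collagen-binding integrin subunit alpha 11, was at 0.145, 0.347 and 0.566 CPM in ctrl-OE, at 0.476, 1.10 and 1.31 CPM in MEIS1-OE and at 0.706, 0.953 and 1.18 CPM in MEIS2-OE. MEIS1-OE overlapped with the controls, MEIS2-OE did not, and the pooled log2 fold change was 1.42 ± 0.23 (SE, edgeR adjusted P = 4.1e-04).

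Enzymes and intracellular factors formed the rest of the named raised genes. CYP26A1, which degrades retinoic acid, had the largest smaller fold change of all shared raised genes, from 0.0848, 0.262 and 0.629 CPM in ctrl-OE to 0.729, 1.03 and 1.80 CPM in MEIS1-OE and 0.926, 1.53 and 1.96 CPM in MEIS2-OE. Its groups did not overlap although the control range was wide, and the log2 fold change was 1.93 ± 0.32 (SE, edgeR adjusted P = 2.6e-04) in MEIS1-OE and 2.30 ± 0.31 (SE, edgeR adjusted P = 7.8e-05) in MEIS2-OE. B3GALT2, a galactosyltransferase, was at 1.06, 1.40 and 2.03 CPM in ctrl-OE, at 1.72, 2.44 and 3.44 CPM in MEIS1-OE and at 3.24, 4.74 and 5.85 CPM in MEIS2-OE. MEIS1-OE overlapped with the controls and MEIS2-OE lay clear of them, and the difference between the paralogs of -0.90 was called (95% interval -1.23 to -0.57, edgeR adjusted P = 5.0e-04). VGLL3, a cofactor of TEAD transcription factors, was at 17.1, 19.8 and 21.9 CPM in ctrl-OE, at 36.2, 46.3 and 72.2 CPM in MEIS1-OE and at 63.5, 66.3 and 86.4 CPM in MEIS2-OE. Here too the controls were lowest and MEIS2-OE was on the whole highest, with a log2 fold change of 1.33 ± 0.13 (SE) against 1.85 ± 0.13 (SE) and a difference of -0.52 (95% interval -0.77 to -0.26, edgeR adjusted P = 0.0091).

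ANKRD1, a nuclear and sarcomeric ankyrin-repeat protein and a target of YAP and TEAD in many cells, was at 18.1, 26.6 and 31.5 CPM in ctrl-OE, at 39.7, 46.6 and 81.7 CPM in MEIS1-OE and at 38.5, 45.6 and 73.9 CPM in MEIS2-OE. All activation libraries were above the controls, with a pooled log2 fold change of 0.98 ± 0.16 (SE, edgeR adjusted P = 4.4e-04). BAALC, a membrane-bound protein known from neural tissue and acute leukaemia, was at 52.4, 53.9 and 59.9 CPM in ctrl-OE, at 98.6, 103 and 108 CPM in MEIS1-OE and at 93.6, 99.4 and 109.8 CPM in MEIS2-OE. Its replicates were tight, its groups lay far apart, and its pooled log2 fold change of 0.89 ± 0.04 (SE) had an edgeR adjusted P of 1.1e-12. TNFAIP3, the ubiquitin-editing inhibitor of NF-kappa-B signalling also called A20, was at 3.92, 4.34 and 4.92 CPM in ctrl-OE, at 6.19, 7.53 and 9.62 CPM in MEIS1-OE and at 6.15, 6.89 and 7.55 CPM in MEIS2-OE. The TNFAIP3 groups did not overlap with the controls, and the pooled log2 fold change was 0.74 ± 0.09 (SE, edgeR adjusted P = 1.1e-05).

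**Figure D2:**
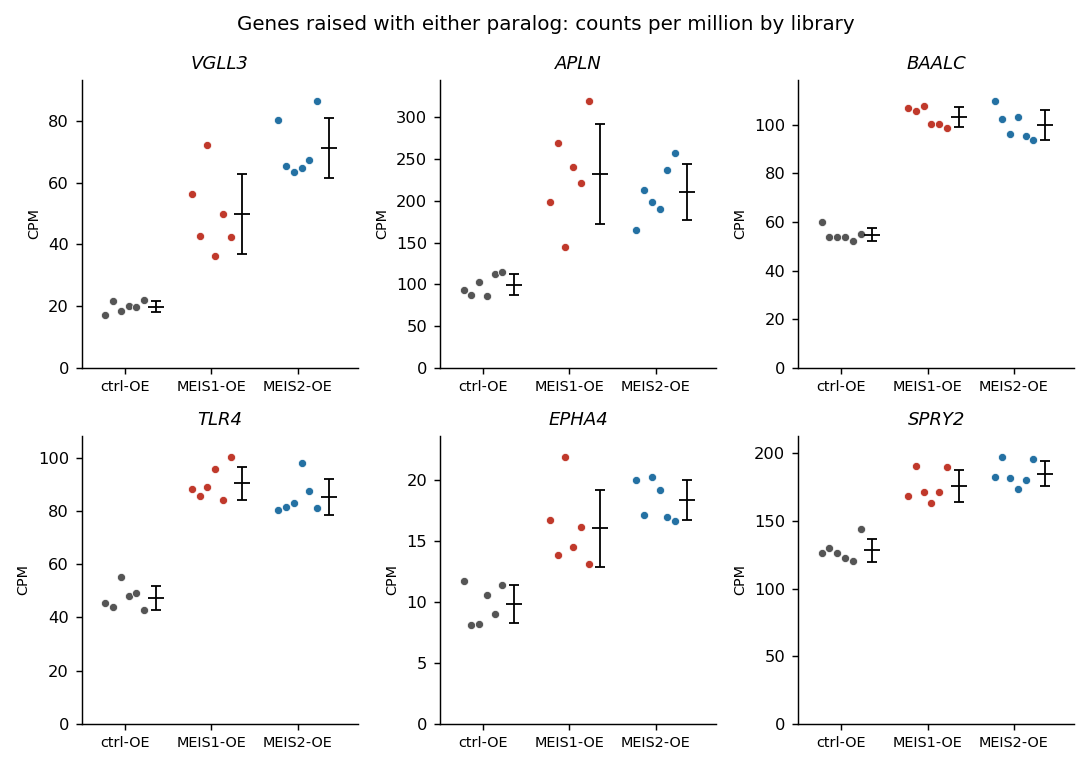
CPM (linear axes from 0) of VGLL3, APLN, BAALC, TLR4, EPHA4 and SPRY2 in the 6 libraries of ctrl-OE (grey), MEIS1-OE (red) and MEIS2-OE (blue). Each point is a library, and the bar beside it gives the mean and SD. For all 6 genes the 12 activation libraries lie above the 6 controls, and VGLL3 and APLN vary more among activation libraries than BAALC.

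The shared lowered genes were fewer, and LPPR4 stood apart from the others. LPPR4 (current symbol PLPPR4), a brain-enriched membrane protein related to lipid phosphatases and found at synapses, was at 4.55, 5.01 and 7.24 CPM in ctrl-OE, at 0.848, 1.14 and 1.56 CPM in MEIS1-OE and at 0.792, 1.27 and 1.82 CPM in MEIS2-OE. Every activation library was far below every control, and the log2 fold change was -2.22 ± 0.16 (SE, edgeR adjusted P = 1.5e-09) in MEIS1-OE and -2.05 ± 0.16 (SE, edgeR adjusted P = 1.5e-08) in MEIS2-OE. IGFL2, a small secreted protein of the insulin growth factor-like family, was at 1.84, 1.90 and 2.27 CPM in ctrl-OE, at 0.937, 1.10 and 1.23 CPM in MEIS1-OE and at 0.510, 0.666 and 1.07 CPM in MEIS2-OE. Its groups did not overlap with the controls, and the pooled log2 fold change was -1.17 ± 0.12 (SE, edgeR adjusted P = 1.2e-06). IGFL2 fell more in MEIS2-OE (difference 0.61, 95% interval 0.26 to 0.96, edgeR adjusted P = 0.032). SRL, the sarcoplasmic reticulum protein sarcalumenin, was at 0.755, 1.19 and 1.69 CPM in ctrl-OE, at 0.236, 0.563 and 0.687 CPM in MEIS1-OE and at 0.359, 0.541 and 0.967 CPM in MEIS2-OE. MEIS1-OE lay below the SRL controls and MEIS2-OE overlapped with them. With a log2 fold change of -1.02 ± 0.25 (SE, edgeR adjusted P = 0.043) in MEIS2-OE, the shared call was kept in only 4 of 18 fits with 1 library left out. It was lost without ctrl-OE replicate 1, 2, 3, 5 or 6, MEIS1-OE replicate 1, 2, 4 or 6, or MEIS2-OE replicate 1, 3, 4, 5 or 6, with the smallest log2 fold change, -0.89, without ctrl-OE replicate 5.

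F13A1, the catalytic subunit of coagulation factor XIII, was at 35.6, 38.3 and 40.3 CPM in ctrl-OE, at 15.9, 17.9 and 20.5 CPM in MEIS1-OE and at 20.5, 22.7 and 25.2 CPM in MEIS2-OE. It was lower in all activation libraries, and lower with MEIS1 than with MEIS2 (log2 difference -0.35, 95% interval -0.49 to -0.22, edgeR adjusted P = 9.5e-04). SPN, the sialylated membrane protein CD43 of white blood cells, was at 17.7, 18.5 and 21.2 CPM in ctrl-OE, at 10.9, 11.9 and 13.3 CPM in MEIS1-OE and at 13.1, 13.9 and 15 CPM in MEIS2-OE. SPN also fell without overlap, with a pooled log2 fold change of -0.56 ± 0.06 (SE, edgeR adjusted P = 6.0e-07). FRMD8, a FERM-domain protein that binds iRhoms, was at 105, 111 and 143 CPM in ctrl-OE, at 53, 80.1 and 84.8 CPM in MEIS1-OE and at 70.8, 82.9 and 97.1 CPM in MEIS2-OE. The transcript LOC100506421 was at 64.0, 68.2 and 74.9 CPM in ctrl-OE, at 42.5, 46.4 and 55.6 CPM in MEIS1-OE and at 47.3, 53.4 and 59.2 CPM in MEIS2-OE. Both were lower in every activation library than in every control, with pooled log2 fold changes of -0.56 ± 0.09 (SE, edgeR adjusted P = 1.7e-04) and -0.47 ± 0.05 (SE, edgeR adjusted P = 7.1e-06).

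CDC25C and EPHA7 complete the named lowered genes described here. CDC25C, the phosphatase that opens mitosis by activating CDK1, was at 40.3, 43.8 and 48.8 CPM in ctrl-OE, at 24.8, 28.5 and 33.9 CPM in MEIS1-OE and at 30.6, 34.8 and 39.3 CPM in MEIS2-OE. No activation library reached the CDC25C controls, and the fall was larger with MEIS1 (log2 difference -0.29, 95% interval -0.45 to -0.12, edgeR adjusted P = 0.026). The MEIS2 call of CDC25C (log2 fold change -0.33 ± 0.08, SE, edgeR adjusted P = 0.038) was kept in 10 of 18 fits with 1 library left out. It was lost without ctrl-OE replicate 1, 2 or 4, MEIS1-OE replicate 1 or MEIS2-OE replicate 1, 2, 5 or 6. EPHA7, another ephrin receptor, was at 4.32, 5.71 and 6.34 CPM in ctrl-OE, at 3.38, 3.91 and 4.48 CPM in MEIS1-OE and at 3.0, 3.98 and 4.74 CPM in MEIS2-OE. EPHA7 controls overlapped with both activations in their lowest library, and the pooled log2 fold change was -0.52 ± 0.10 (SE, edgeR adjusted P = 0.0017), so that the ephrin receptors EPHA4 and EPHA7 moved in opposite directions.

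**Figure D3:**
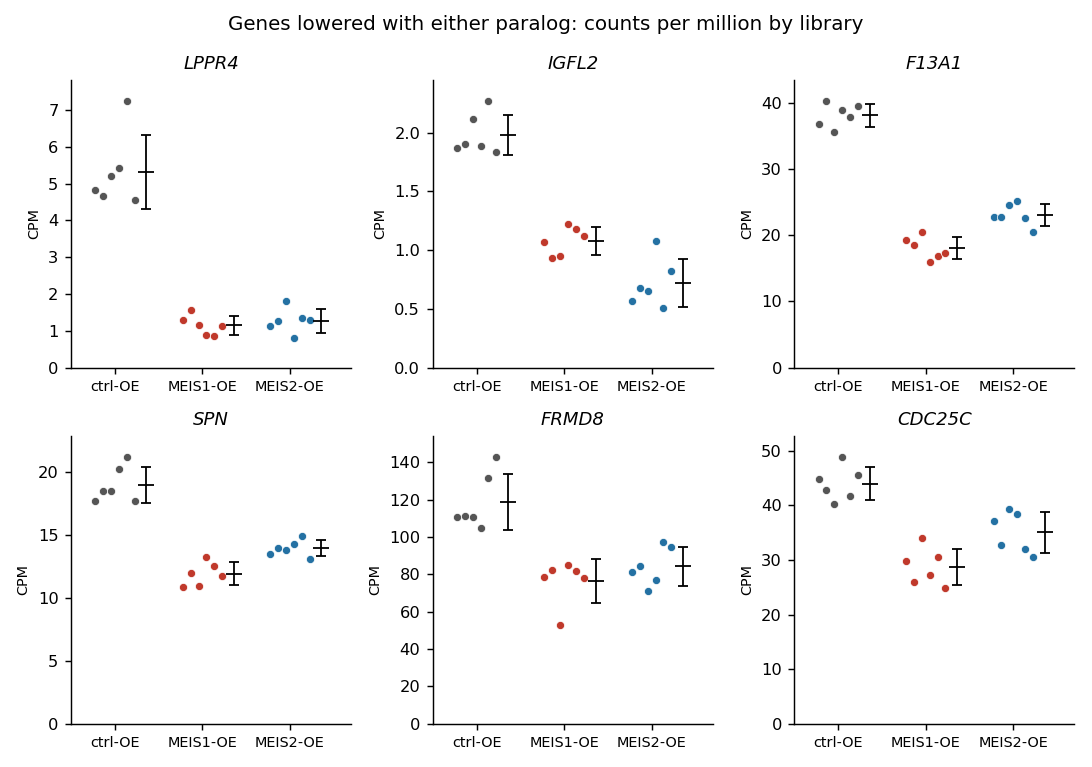
CPM (linear axes from 0) of LPPR4, IGFL2, F13A1, SPN, FRMD8 and CDC25C in the 6 libraries of ctrl-OE (grey), MEIS1-OE (red) and MEIS2-OE (blue), with the mean and SD beside the points. For all 6 genes both activations lie below the controls, by the widest margin for LPPR4.

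Promoter sequences were read for the shared genes because MEIS proteins bind TGACAG. A RefSeq promoter (GRCh38.p14, 250 bases before to 50 after the gene start) was matched for 61 of the 82 shared genes and for 12993 tested genes. The letters TGACAG were, on either strand, in 6 of 53 promoters of raised genes (11.3%), in 1 of 8 of lowered genes (12.5%) and in 1778 of all 12993 (13.7%). A motif bound by PBX factors, TGATTGA, was searched in the same way and was in 0 of 53 and 0 of 8 against 1.59% of all promoters. A motif bound by TEAD factors, CATTCC, was in 7.55% and 25% against 11.1%. The motif of the AP-1 factors, TGACTCA, was in 3.77% and 0% against 3.32%. For promoters of raised genes the share with the MEIS motif was thus near that of all promoters, and 8 promoters of lowered genes are too few to compare. The study's chromatin immunoprecipitation in untreated hNSC placed most MEIS binding sites away from gene starts. Shares in so short a window therefore cannot tell whether MEIS proteins bind near the shared genes. B3GALT2, ITGA11 and LPPR4 are the genes named above whose promoters held TGACAG and are shown for that reason with the 250 bases before the gene start, in the direction of transcription, with the motif on either strand in capitals. B3GALT2 is on the minus strand at chr1:193186614-193186863, ITGA11 on the minus strand at chr15:68432164-68432413 and LPPR4 on the plus strand at chr1:99264242-99264491.
B3GALT2: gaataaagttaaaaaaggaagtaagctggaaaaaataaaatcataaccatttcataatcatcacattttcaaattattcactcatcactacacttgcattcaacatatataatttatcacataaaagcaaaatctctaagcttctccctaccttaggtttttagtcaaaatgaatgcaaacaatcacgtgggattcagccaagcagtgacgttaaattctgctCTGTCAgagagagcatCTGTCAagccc
ITGA11: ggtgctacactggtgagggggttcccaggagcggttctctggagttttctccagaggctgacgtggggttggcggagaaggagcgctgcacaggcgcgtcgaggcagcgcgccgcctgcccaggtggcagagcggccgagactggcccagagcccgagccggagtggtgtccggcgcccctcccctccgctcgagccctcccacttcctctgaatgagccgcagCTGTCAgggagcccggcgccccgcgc
LPPR4: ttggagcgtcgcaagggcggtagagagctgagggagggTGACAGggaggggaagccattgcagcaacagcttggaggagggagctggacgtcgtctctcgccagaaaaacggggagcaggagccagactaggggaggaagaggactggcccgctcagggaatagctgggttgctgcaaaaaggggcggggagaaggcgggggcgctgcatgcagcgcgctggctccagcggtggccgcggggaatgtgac
In B3GALT2 the motif starts 27 and 11 bases before the gene start, in ITGA11 26 bases before it and in LPPR4 212 bases before it. The other shared raised genes with the motif held it at other distances. It starts 131 and 81 bases before the gene start in GMFG, 152 in TRPC4 and 225 in VAT1L, and 9 bases after it in GPR55. With LPPR4 as the only lowered gene that held it, the position cannot be compared between directions.

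The shared genes had been selected for calls of the same sign in both activations, so that likeness between the paralogs is partly built in. Some of them still differed, and a difference that was not called does not show likeness. The difference between MEIS1-OE and MEIS2-OE, in which the controls cancel, was called for 10 of the 69 raised genes and for 5 of the 13 lowered genes, where 7.22% of all tested genes were called. Of the 10 raised genes, PDGFA, THBS3, PIANP, COL4A1, EMP1, SPOCK1 and B4GALT1 rose more with MEIS1 and VGLL3, B3GALT2 and SEMA6A more with MEIS2. Of the lowered genes, F13A1, SPN and CDC25C fell more with MEIS1 and IGFL2 more with MEIS2. PIANP, SEMA6A, COL4A1, EMP1, SPOCK1 and B4GALT1 lie outside the rule for named genes and are named because they complete this count. PIANP, the neuronal ligand of the receptor PILRA, was at 22.6, 26.9 and 28.5 CPM in ctrl-OE, at 106, 129 and 141 CPM in MEIS1-OE and at 29.8, 35.7 and 38.4 CPM in MEIS2-OE. It lay above the controls in all activation libraries, yet the paralogs did not overlap with each other, at a log2 difference of 1.86 (95% interval 1.70 to 2.01, edgeR adjusted P = 1.5e-14). SEMA6A, a membrane-bound semaphorin, was at 31.8, 33.7 and 34.6 CPM in ctrl-OE, at 36.2, 39.5 and 43.6 CPM in MEIS1-OE and at 47.9, 53.1 and 55.2 CPM in MEIS2-OE. It was higher with either paralog than in the controls, with each group in a range of its own, at a log2 difference of -0.40 (95% interval -0.51 to -0.30, edgeR adjusted P = 8.4e-06).

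For genes without a called difference, the interval gives how unlike the paralogs could be. For BAALC it was -0.05 to 0.14 and for TLR4 -0.04 to 0.22 on the log2 scale (95% intervals of MEIS1-OE minus MEIS2-OE). For APLN it was -0.14 to 0.43, for ANKRD1 -0.32 to 0.41 and for GREM1 -0.35 to 0.52, and for CYP26A1, a gene of few counts, -0.88 to 0.14. Narrow intervals thus belonged to the tightly measured genes BAALC and TLR4, and wide ones to genes that varied between replicates or had few counts.

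**Figure D4:**
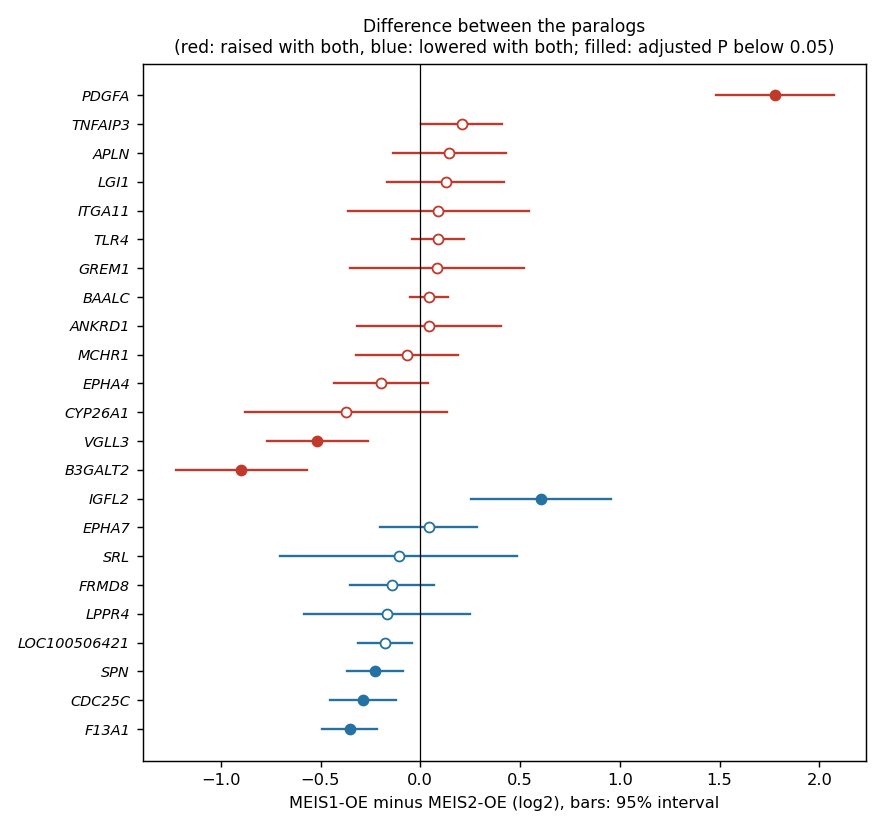
Log2 difference between MEIS1-OE and MEIS2-OE (horizontal axis, with 95% intervals as bars) for the 14 named genes raised with both paralogs (red) and 9 of the named genes lowered with both (blue). Filled points have an edgeR adjusted P below 0.05. PDGFA lies furthest to the MEIS1 side at 1.78 and B3GALT2 furthest to the other side at -0.90, and the interval of BAALC is the narrowest among the raised genes.

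Pooled calls that came from 1 paralog had other profiles. The 4 such raised genes with the largest pooled fold change, FAT2, TTC9B, SYTL5 and STK32B, were all near 0 in ctrl-OE and MEIS2-OE. FAT2, an atypical cadherin, was at 0, 0 and 0.0483 CPM in ctrl-OE, at 44.0, 50.3 and 61.2 CPM in MEIS1-OE and at 0, 0.0499 and 0.202 CPM in MEIS2-OE. TTC9B, a tetratricopeptide-repeat protein, was at 28.6, 44.3 and 50.8 CPM in MEIS1-OE, SYTL5, a synaptotagmin-like Rab effector, at 9.26, 12 and 17.0 CPM, and STK32B, a serine/threonine kinase, at 8.59, 9.10 and 13 CPM. No library of ctrl-OE or MEIS2-OE was above 0.206 CPM for any of them. These genes were thus detected at a clear level in MEIS1-OE alone of the 3 groups. The pooled fold change of each averages a large difference in MEIS1-OE with that of MEIS2-OE, taken between groups near 0 CPM. The latter was poorly measured, with a log2 fold change of 1.77 ± 0.84 for FAT2 and -0.49 ± 0.55 for STK32B (SE, edgeR adjusted P = 0.71 and 0.99). The 4 lowered genes of this kind, KLHL10, MCOLN3, CCNA1 and TMEM130, fell in MEIS1-OE. KLHL10, a substrate adaptor of ubiquitin ligases, was at 1.5, 2.46 and 3.57 CPM in ctrl-OE, at 0.236, 0.504 and 0.944 CPM in MEIS1-OE and at 1.31, 1.52 and 1.81 CPM in MEIS2-OE. It was below all controls in MEIS1-OE and overlapped with them in MEIS2-OE, with a log2 difference between the paralogs of -1.47 (95% interval -2.04 to -0.91, edgeR adjusted P = 8.2e-04). For the cation channel MCOLN3, the cyclin CCNA1 and the membrane protein TMEM130 this difference was -1.60, -2.12 and -1.50 (edgeR adjusted P = 1.1e-04, 5.0e-05 and 1.8e-04).

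Another 7 genes (0.037%) were called in both activations with opposite signs, and each of them was lower in MEIS1-OE and higher in MEIS2-OE. Among them were CDKN2C, ECEL1, ENPP1, HK2, HPSE and SYPL2. CDKN2C, the inhibitor p18 of the cell-cycle kinases CDK4 and CDK6, was at 4.97, 5.56 and 6.15 CPM in ctrl-OE, at 2.22, 2.89 and 3.59 CPM in MEIS1-OE and at 27.9, 31.6 and 34.1 CPM in MEIS2-OE. The 3 groups did not overlap, and because the rise outweighed the fall the pooled log2 fold change of CDKN2C was 0.77 ± 0.08 (SE, edgeR adjusted P = 1.7e-06), a pooled call that describes neither activation. ECEL1, a membrane metallopeptidase of the nervous system, was at 1.48, 2.05 and 2.56 CPM in ctrl-OE, at 0.740, 1.10 and 1.39 CPM in MEIS1-OE and at 4.53, 5.59 and 7.34 CPM in MEIS2-OE. HK2, the hexokinase that opens glycolysis, was at 31.7, 38.5 and 43.6 CPM in ctrl-OE, at 25.9, 29.5 and 31.6 CPM in MEIS1-OE and at 45.8, 46.6 and 55.5 CPM in MEIS2-OE. The last of them, SYPL2, a membrane protein of muscle junctions, was at 1.44, 1.72 and 2.26 CPM, at 0.624, 0.921 and 1.17 CPM and at 2.47, 2.97 and 4.30 CPM in the same order. In all 3 the groups lay in separate ranges. The pooled log2 fold changes were close to 0 for HK2 (-0.02 ± 0.06, SE) and SYPL2 (-0.12 ± 0.14, SE) and 0.29 ± 0.15 (SE) for ECEL1, none of them called (edgeR adjusted P = 0.96, 0.84 and 0.39).

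Among the 18 tested TALE homeodomain genes, 3 were raised and 1 was lowered in the pooled comparison at an edgeR adjusted P below 0.05. Of all genes 2.35% and 0.878% were. The raised ones include MEIS1 and MEIS2, the targets of the guides, whose calls follow from the design, so that the count of 3 says little about the list. The remaining calls, 1 raised and 1 lowered, were the Prep genes, which encode close relatives of MEIS that also bind PBX. They were shared calls in opposite directions. PKNOX1 (Prep1) was at 22.0, 23.7 and 25.6 CPM in ctrl-OE, at 27.4, 29.2 and 32.6 CPM in MEIS1-OE and at 29.5, 33.1 and 34.0 CPM in MEIS2-OE, a pooled log2 fold change of 0.38 ± 0.05 (SE, edgeR adjusted P = 3.4e-05). PKNOX2 (Prep2) was at 49.2, 54.8 and 65.4 CPM in ctrl-OE, at 42.4, 42.8 and 46.5 CPM in MEIS1-OE and at 39.9, 43.4 and 47.3 CPM in MEIS2-OE, a pooled log2 fold change of -0.33 ± 0.05 (SE, edgeR adjusted P = 3.2e-04). Neither gene's activation libraries overlapped with the controls.

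For lists of other pathways, the counts below use an edgeR adjusted P below 0.05 in the pooled comparison. Of all tested genes, 2.35% rose and 0.878% fell at that level. In MEIS1-OE alone 5.07% rose and 2.98% fell, and in MEIS2-OE alone 0.92% and 0.132%. Of 16 feedback genes of FGF and ERK signalling, 4 rose and none fell, with a median log2 fold change of 0.14 over the list: SPRY2, IL17RD, PHLDA1 and SPRY1, all inhibitors of the pathway or products induced by it. SPRY2, the only shared one of them, was at 120.5, 126 and 144 CPM in ctrl-OE, at 163, 171 and 190.3 CPM in MEIS1-OE and at 173, 182 and 197 CPM in MEIS2-OE, without overlap (pooled log2 fold change 0.49 ± 0.04, SE, edgeR adjusted P = 1.5e-07). Of 22 G2/M genes, 3 fell, CDC25C, the mitotic kinesin KIF20A (-0.33 ± 0.05, SE) and the proliferation marker MKI67 (-0.22 ± 0.06, SE), and the median over the list was -0.12. At an unadjusted P below 0.05, 14 of the 22 were lower, where 6.33% of all tested genes were lower and 7.01% higher. In MEIS1-OE 9 of the G2/M genes were called as lowered (list median -0.17), against 1 in MEIS2-OE (list median -0.06). Of 20 G1/S genes, 0 were called by edgeR, 6 were lower at an unadjusted P below 0.05, and DESeq2 called 1 as lowered. Of 28 genes of wound healing and coagulation, F13A1 fell and the protease inhibitor gene TFPI2 and the growth factor gene TGFB3 rose, by log2 fold changes of 0.35 and 0.28. Of 30 p53 target genes edgeR called 1 as raised in the pooled comparison, the kinase gene PLK2, where DESeq2 called 3, MEIS1-OE alone raised 4 and 5 were higher at an unadjusted P below 0.05. PLK2 rose from 123, 129 and 135 CPM in ctrl-OE to 168, 190.4 and 255 CPM in MEIS1-OE and 171, 179.6 and 207 CPM in MEIS2-OE. It was above all controls (pooled log2 fold change 0.57 ± 0.07, SE, edgeR adjusted P = 5.7e-06). Of 17 Notch pathway genes, the Notch targets HEY1 and HEYL rose and HES5 fell. HEY1 and HEYL were called in MEIS2-OE (log2 fold change 1.33 and 0.94) and not in MEIS1-OE (0.41 and 0.15).

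Of 33 synaptic adhesion genes and organisers, 5 rose: THBS3, MDGA1, NTNG1, NRXN2 and THBS2, with a median log2 fold change over the list of 0.01. At the same level 2.35% of all tested genes rose. THBS3, a secreted thrombospondin, was at 55.6, 60.1 and 64.0 CPM in ctrl-OE, at 145, 161 and 165 CPM in MEIS1-OE and at 63.2, 70.3 and 76.3 CPM in MEIS2-OE. It was a shared call by a narrow margin. MEIS2-OE overlapped with the controls, its log2 fold change was 0.23 ± 0.05 (SE, edgeR adjusted P = 0.03) against 1.41 ± 0.05 (SE) in MEIS1-OE. The MEIS2 call was kept in 10 of 18 fits with 1 library left out. THBS3 lost it without ctrl-OE replicate 1, 2, 3 or 6 or MEIS2-OE replicate 1, 3, 4 or 6. Of the genes the study links to restless legs syndrome, MDGA1, an inhibitor of synapse formation, was at 1.85, 2.17 and 2.85 CPM in ctrl-OE, at 4.18, 5.44 and 6.21 CPM in MEIS1-OE and at 1.36, 1.85 and 2.21 CPM in MEIS2-OE. Another, NTNG1, the axonal adhesion protein netrin-G1, was at 0.330, 0.556 and 0.688 CPM, at 1.82, 2.01 and 2.38 CPM and at 0.435, 0.916 and 1.47 CPM in the same order. Both were clear of the controls with MEIS1 and overlapped with them with MEIS2, and the differences between the paralogs were 1.59 (95% interval 1.33 to 1.86, edgeR adjusted P = 4.7e-09) and 1.16 (95% interval 0.73 to 1.58, edgeR adjusted P = 4.6e-04). The transcription cofactor gene DACH1 was raised in MEIS1-OE (log2 fold change 0.64 ± 0.17, SE, edgeR adjusted P = 0.018) and not called in MEIS2-OE (-0.05 ± 0.18, SE) or in the pooled comparison (0.30 ± 0.15, SE, edgeR adjusted P = 0.42). Its difference between the paralogs of 0.69 was called (95% interval 0.33 to 1.04, edgeR adjusted P = 0.013).

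Few markers of cell types were called in edgeR's pooled test. At an edgeR adjusted P below 0.05, 2.35% of all tested genes rose in it and 0.878% fell. At an unadjusted P below 0.05 these shares were 7.01% and 6.33%. MEIS1-OE alone raised 5.07% of all tested genes and MEIS2-OE alone 0.92%. Of 17 neuronal differentiation markers 1 rose, the neurofilament gene NEFM, which was chosen after its values were seen. NEFM was at 98.3, 109 and 124 CPM in ctrl-OE, at 132, 172 and 195 CPM in MEIS1-OE and at 126, 136 and 138 CPM in MEIS2-OE. Its activation libraries lay above the controls, but its call in MEIS2-OE was missed (log2 fold change 0.64 with MEIS1 and 0.30 with MEIS2, edgeR adjusted P = 2.3e-06 and 0.055). In this list 4 genes were higher at an unadjusted P below 0.05 and 2 were lower, DESeq2 called 2 as raised, and MEIS1-OE alone raised 4 and MEIS2-OE 0. Of 16 glial markers 0 were called, with 5 at an unadjusted P below 0.05 (2 higher and 3 lower) and 1 called as lowered by DESeq2. Of 10 mesenchymal, 7 endothelial and 5 microglia and blood markers 0 were called by either tool, with 1 higher at an unadjusted P below 0.05 in each list. In MEIS1-OE alone, 1 of the mesenchymal markers (PDGFRB) and 2 of the microglia and blood markers (CD68 and TYROBP) were raised, and in MEIS2-OE 0 of them. Of 5 pluripotent cell markers 0 were called by either tool, with 0 at that level. Of 15 neural stem cell markers, HES5 fell, from 1 to 35 counts per library in ctrl-OE to between 0 and 4 in the activations. HES5 was called in MEIS1-OE (edgeR adjusted P = 0.015) and not in MEIS2-OE (edgeR adjusted P = 0.084). At an unadjusted P below 0.05, 0 of the 15 were higher and 3 were lower, and DESeq2 called 1 as lowered. The summed level of the neural stem cell list ranged from 3884 to 4894 CPM in ctrl-OE, from 4327 to 5193 CPM in MEIS1-OE and from 3905 to 4609 CPM in MEIS2-OE, overlapping between all groups. Most of this sum came from VIM and NES, with medians of 2113 and 956 CPM in ctrl-OE, so that it says little about the other markers.

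The knockout libraries gave the shared genes a readout that the calls had not used. The pooled knockouts raised 760 of 18343 tested genes (4.14%) and lowered 682 (3.72%) relative to ctrl-KO at an edgeR adjusted P below 0.05. The targeted genes were lower, with MEIS1 at 6.16, 8.49 and 10.6 CPM in MEIS1-KO against 22.7, 24.3 and 26.2 CPM in ctrl-KO, and MEIS2 at 10.1, 11.7 and 13 CPM in MEIS2-KO against 22.4, 25.1 and 26.1 CPM. Of the 69 genes raised by both activations, 14 were raised in the knockouts (20.3%), 12 were lowered (17.4%) and 43 were called in neither direction, with a median log2 fold change of 0.01 in the knockouts. Both shares were above the background of all tested genes. That background includes genes of few counts, whereas only 3 of the 69 had a mean below 1 CPM in all 3 groups of the activation system. What this contributes to the shares was not tested. The background of lowered genes depended on the control libraries, with 447, 437, 425 and 443 genes without ctrl-KO replicate 1, 2, 5 and 6. Of the 13 lowered genes, F13A1 and FRZB were raised in the knockouts, EPHA7 was lowered and 10 were not called. The number of raised genes that also rose in the knockouts varied between 8 and 17 when 1 activation library was left out, with 9 without ctrl-OE replicate 1, 8 without MEIS2-OE replicate 3 and 9 without MEIS2-OE replicate 5. With the replicate number as a block in the fit, this number and the background of lowered genes were both higher (see the last paragraph).

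CYP26A1 moved in opposite ways in the 2 systems. It fell from 0.895, 1.24 and 1.92 CPM in ctrl-KO to 0.401, 0.532 and 0.763 CPM in MEIS1-KO and was at 0.725, 1.01 and 1.3 CPM in MEIS2-KO, where it overlapped with ctrl-KO (pooled log2 fold change -0.80 ± 0.17, SE, edgeR adjusted P = 0.0053). BAALC, EPHA4 and SPRY2 were likewise raised by the activations and lowered in the pooled knockouts, with pooled knockout log2 fold changes of -0.34 ± 0.05, -0.18 ± 0.05 and -0.20 ± 0.03 (SE, edgeR adjusted P = 2.0e-04, 0.044 and 4.0e-04). BAALC and SPRY2 were called in each knockout by itself. EPHA4 was called in neither (edgeR adjusted P = 0.26 in MEIS1-KO and 0.053 in MEIS2-KO). KIT, ST8SIA4 and SPOCK1, chosen after their values were seen, had the same pattern. KIT, the receptor of stem cell factor, was at 4.64, 5.23 and 5.43 CPM in ctrl-OE, at 7.60, 8.49 and 9.41 CPM in MEIS1-OE and at 6.83, 7.65 and 8.27 CPM in MEIS2-OE. In the knockouts it went from 7.5, 7.78 and 8.26 CPM in ctrl-KO to 5.44, 6.06 and 7.69 CPM in MEIS1-KO and 4.24, 5.56 and 6.72 CPM in MEIS2-KO. Its activation libraries were all above their controls, and the knockouts overlapped with theirs only in MEIS1-KO (pooled knockout log2 fold change -0.42 ± 0.08, SE, edgeR adjusted P = 0.0025). By itself MEIS1-KO was not called for KIT (edgeR adjusted P = 0.098). For ST8SIA4, a polysialyltransferase that modifies the adhesion molecule NCAM, and SPOCK1, the proteoglycan testican-1, the pooled log2 fold changes were 0.63 ± 0.05 and 0.78 ± 0.07 (SE) with activation and -0.35 ± 0.05 and -0.29 ± 0.04 (SE) with knockout (edgeR adjusted P of the latter 2.4e-04 and 8.1e-05). All genes named here for this pattern were higher in ctrl-KO than in ctrl-OE. Their mean was 125 against 54.8 CPM for BAALC, 25.9 against 9.83 CPM for EPHA4 and 194 against 128 CPM for SPRY2. It was 79.5 against 31.7 CPM for ST8SIA4 and 119 against 39.7 CPM for SPOCK1. For EPHA4, ST8SIA4 and SPOCK1 both knockout means stayed above both activation means. The 2 systems thus did not start from a common level.

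GREM1, ANKRD1 and APLN rose in both systems. GREM1 was at 10.6, 14.5 and 17.3 CPM in ctrl-KO, at 20.5, 31.3 and 52.5 CPM in MEIS1-KO and at 35.8, 40.7 and 57.2 CPM in MEIS2-KO, a pooled log2 fold change of 1.40 ± 0.16 (SE, edgeR adjusted P = 1.2e-05). ANKRD1 was at 18.5, 31.1 and 35.1 CPM in ctrl-KO, at 40.2, 58.7 and 76.9 CPM in MEIS1-KO and at 41.9, 57.9 and 67.0 CPM in MEIS2-KO, a pooled log2 fold change of 0.94 ± 0.13 (SE, edgeR adjusted P = 5.7e-05). Both genes were above their controls in all 12 knockout libraries, as they were in all 12 activation libraries. APLN went from 66.8, 91.6 and 101 CPM in ctrl-KO to 103, 124 and 171 CPM in MEIS1-KO and 117, 138 and 172 CPM in MEIS2-KO. It did so without overlap (log2 fold change 0.62 ± 0.10, SE, edgeR adjusted P = 3.1e-04), and PLK2 rose by a log2 fold change of 0.36 ± 0.05 (SE, edgeR adjusted P = 3.1e-05). What a targeting guide and virus add relative to the non-targeting control in either system was not tested.

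Several shared genes had very unlike levels in the controls of the systems. SPN was at 19.0 ± 1.43 CPM (SD, n = 6) in ctrl-OE and at 0.725 ± 0.221 CPM (SD, n = 6) in ctrl-KO, LPPR4 at 5.32 ± 1.0 and 0.195 ± 0.215 CPM, and VGLL3 at 19.8 ± 1.83 and 56.4 ± 3.99 CPM. LPPR4 had 0 to 10 counts per library in ctrl-KO and a knockout log2 fold change of -0.16 ± 0.56 (SE, edgeR adjusted P = 0.91). VGLL3, at 51.5, 53.5 and 63.3 CPM in MEIS1-KO and 38.0, 52.2 and 55.8 CPM in MEIS2-KO, overlapped with ctrl-KO in both (pooled log2 fold change -0.10 ± 0.07, SE, edgeR adjusted P = 0.41). The virus set and the processing of the 2 systems cannot be told apart in these levels.

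**Figure D5:**
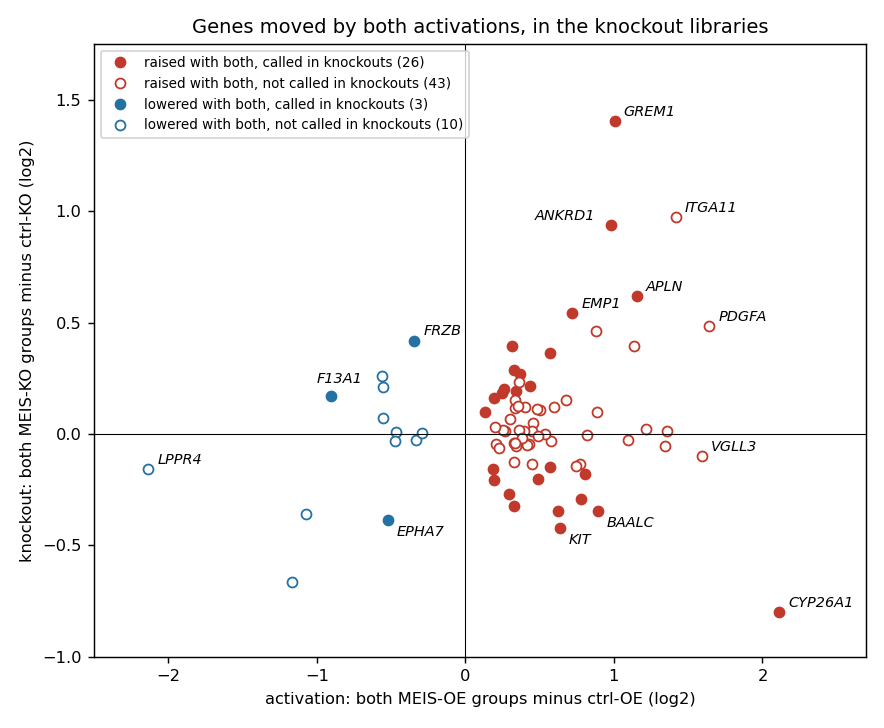
Log2 fold change of the 82 shared genes in the pooled knockouts (vertical axis, relative to ctrl-KO) against the pooled activations (horizontal axis, relative to ctrl-OE). Red points rose and blue points fell with both activations, and filled points have an edgeR adjusted P below 0.05 in the knockouts. The raised genes spread on both sides of 0 in the knockouts, with GREM1, ANKRD1 and APLN above and CYP26A1, KIT and BAALC below.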

How the data were processed

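The data are RNA-seq of hNSC in 6 conditions with 6 stranded poly-A libraries each. The deposited values are raw counts of reads per gene symbol, which the authors made with STAR on hg19 and HTSeq 0.6.0; STAR is named as 2.4.2a in the design text and as 2.7.0a, beside Trimmomatic 0.39, in the submitters' processing notes. The gene annotation and the strand setting are not given in the sources used here. Libraries were matched to samples by their descriptions.

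Genes with at least 10 counts summed over the 18 activation libraries (18915) or the 18 knockout libraries (18343) were tested with edgeR 4.0.16 (limma 3.58.1, R 4.3.3): TMM normalization, 3 groups in 1 fit and quasi-likelihood F tests, two-sided, with Benjamini-Hochberg adjustment over all tested genes and a prior count of 0.125. SE was derived from the fold change and the F statistic. The biological coefficient of variation was 0.0951. The procedure was tested on simulated data. Promoters came from RefSeq (1042 genes matched by an older symbol). Python 3.11.15, pandas 2.3.3 and matplotlib 3.10.9 were used.

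The members and lists were chosen with earlier results of these data known. Named genes were MEIS1 and MEIS2; the 14 raised and 10 lowered shared genes with at least 1 CPM and the largest smaller fold change; 4 raised and 4 lowered 1-paralog genes by pooled fold change; 4 opposite genes; shared members of the lists; and MDGA1, NTNG1 and DACH1. A few named genes are left out of the text. Alternatives were RLE and upper-quartile factors, filterByExpr or no filter, DESeq2 1.42.0, a replicate block, all 36 libraries in 1 fit, 2 groups in the fit, other fold thresholds, disjoint controls and each library left out.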

Additional observations from a re-analysis of the deposited data

Results flagged for a closer look

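In 12 of 138 groups of 6 libraries screened over the named genes, 1 library stood apart from the other 5 by a gap that was large against the range of the group (Dixon's test at the 95% level), where chance gives about 1 in 20 groups. MEIS1-OE replicate 3 accounted for 3 of them: it was highest for MEIS2 (27.4 CPM, next 23) and PKNOX2 (46.5, next 43.7) and lowest for FRMD8 (53, next 77.9). Other MEIS1-OE libraries stood apart for ANKRD1 (replicate 6 at 81.7 CPM, next 54.6), STK32B (replicate 4 at 13, next 9.29), CCNA1 (replicate 4 at 0.377, next 0.233) and THBS3 (replicate 6 at 145, next 159). In ctrl-OE, MEIS1 was lowest in replicate 3 (16.6 CPM, next 18.7), BAALC highest in replicate 1 (59.9, next 55.1), LPPR4 highest in replicate 5 (7.24, next 5.42) and EPHA7 lowest in replicate 3 (4.32, next 5.61). In MEIS2-OE, FAT2 was highest in replicate 3 at 0.202 CPM, next 0.0566.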

How the results depend on the processing

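The pooled counts of 152 raised and 34 lowered genes became 39 and 10 with 2 groups in the fit and 445 and 166 with adjusted P alone, and ranged from 133 to 170 and from 31 to 42 with 1 library left out. The 69 shared raised genes became 19 with the fold threshold in each contrast and 30 in either assignment of disjoint controls, and ranged from 50 to 78 with 1 library left out, with 43 of them called in all 18 of those fits. The 13 shared lowered genes became 31 with DESeq2, 33 with all 36 libraries in 1 fit, 4 with the fold threshold and 6 or 5 with disjoint controls, and ranged from 10 to 31 with 1 library left out, the highest without MEIS1-OE replicate 3; 9 were called in all 18 fits. Under DESeq2, 66 of the raised and 13 of the lowered genes were kept, and under RLE factors 64 and 13. Genes with a paralog difference (1366) ranged from 1090 to 2494, the highest again without MEIS1-OE replicate 3. In the knockouts, raised genes ranged from 571 to 831 and lowered genes from 425 to 753, with 447, 437, 425 and 443 without ctrl-KO replicate 1, 2, 5 and 6. Shared raised genes that rose in the knockouts ranged from 8 to 17 (9 without ctrl-OE replicate 1 and MEIS2-OE replicate 5, 8 without MEIS2-OE replicate 3), and those that fell from 9 to 13. The causes were not tested. Over the named genes, 489 values kept their direction and call and 42 kept their direction without the call, and none reversed.

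Same-numbered libraries shared a part of their deviation from the group means. The correlation of deviations had a mean of 0.0956 over 18 pairs (-0.0135 to 0.236, 6 above 0.1), against -0.0194 for other pairs. The labels do not say that the number pairs libraries, and the main fits left it out. What the number stands for was not tested, and several counts depended on it. With the replicate block, 41 genes were lowered with both paralogs, 24 shared raised genes rose in the knockouts and 1157 genes fell in the knockouts; 67 of the 69 raised and all 13 lowered genes remained shared.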
